A study of Homo sapiens with 12 samples.

Results

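The genes described here encode enzymes that build purine and pyrimidine nucleotides from small precursors and turn them into the building blocks of DNA. They were chosen by name: PPAT, GART, PAICS, ATIC and IMPDH2 of the purine branch, CAD and CTPS1 of the pyrimidine branch, and TYMS, RRM1 and RRM2, which make deoxynucleotides. Of these 10 genes, 9 had a coding open reading frame (ORF) among the ORFs analysed, out of 6375 genes with a coding ORF in all, and CAD had none. All 9 passed the filter on low counts and were tested among 4765 genes. The cells were HEK293, an established human embryonic kidney line, and the measurement was ribosome footprints, the mRNA fragments of 17 to 34 nt that a ribosome shields from nuclease. Amino acid starved cells were kept for 1 h in EBSS with MEM vitamins, 10% FBS and P/S. Serum starved cells were kept for 2 h without FBS. Log phase cells grew in DMEM with 10% FBS and P/S. In each condition footprints were taken from pooled monosome fractions of a gradient, where an mRNA carries 1 ribosome, and from pooled polysome fractions, where it carries several. All lysates held cycloheximide, which stalls elongating ribosomes. This gave 6 groups of 2 libraries, called A and B after the letters of the columns, and 12 libraries in all. Nothing in the labels says that A and B are separate cultures, so the p-values measure only the spread between these libraries, which may be technical.

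De novo purine synthesis assembles the purine ring on activated ribose, taking nitrogen and carbon from glutamine, glycine, aspartate and formyl folate. PPAT commits the activated ribose to the path, GART and PAICS catalyse middle steps, ATIC closes the ring to give IMP, and IMPDH2 turns IMP toward guanine nucleotides. CAD begins pyrimidine synthesis from glutamine and aspartate, and CTPS1 makes CTP from UTP with glutamine. RRM1 and RRM2 are the large and small subunits of ribonucleotide reductase, which makes deoxynucleotides, and TYMS methylates dUMP to dTMP with a folate cofactor. Growth signalling through mTORC1 and MYC is known to raise the expression or activity of several of these enzymes, and TYMS, RRM1 and RRM2 are known E2F targets of the S phase.

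Several short stretches of RefSeq sequence (GRCh38.p14) show where the called ORFs of TYMS and RRM2 begin and which promoter motifs the genes hold. Each sequence runs 5′ to 3′ on the strand of its gene, and positions count from the RefSeq transcript start, the base before it being -1. In PPAT (chr4:56435761-56435820, minus strand) and ATIC (chr2:215311984-215312043, plus strand), capitals mark the E-box CACGTG, a site of MYC family factors, at -182 in PPAT and -46 in ATIC. In TYMS (chr18:657588-657647, plus strand), the first capitals mark the ACG that the authors' ORF caller gave as start codon, at -45, and the second mark an E2F form on the other strand, at -39. In RRM2 (chr2:10122709-10122758, plus strand), capitals mark the GTG given as start codon, which is the transcript's base 1 in the RefSeq promoter table. The RefSeq gene of RRM2 begins earlier, at base 10122568, while the called ORF begins at base 10122739. In RRM1 (chr11:4094675-4094704, plus strand), capitals mark the run of C and T that begins at the transcript start. CTPS1 (chr1:40979686-40979715, plus strand) has no such run, and RPL12 (chr9:127451387-127451416, minus strand), a ribosomal protein gene, is shown for comparison.
PPAT: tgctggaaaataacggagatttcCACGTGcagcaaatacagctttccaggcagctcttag
ATIC: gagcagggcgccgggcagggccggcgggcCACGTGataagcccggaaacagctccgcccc
TYMS: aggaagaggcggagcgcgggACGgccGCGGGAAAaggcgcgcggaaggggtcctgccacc
RRM2: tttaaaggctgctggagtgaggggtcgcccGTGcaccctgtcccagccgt
RRM1: gaggcgtagtCTTCTgggtcttgcccagac
CTPS1: ctctgcgtgcgcacagcctagagcccgcct
RPL12: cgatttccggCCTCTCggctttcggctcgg

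Promoters of 300 bases, 250 before the start base and 50 from it on, were in the table for 9 of the 10 genes, CAD among them and IMPDH2 not. The PAICS promoter of that table (chr4:56410257-56410556, plus strand) lies far before the called PAICS ORF, so the stretch next to that ORF was searched only as the promoter of PPAT. The E-box CACGTG was found on either strand in PPAT and, at -46 and 30, in ATIC, against 8.88% of 15843 protein-coding promoters. The E2F forms TTTGGCGC, TTTCGCGC, TTTGCCGC and TTTCCCGC, searched on both strands, were found in TYMS alone of these 9 promoters, against 4.44% of all. A C at the start base followed by at least 4 of C or T, as in 5′ terminal oligopyrimidine mRNAs, was found in RRM1 alone of these 9, against 4.60% of all. No match overlapped one of another motif in these genes. A match is a description of the letters and not of a bound factor.

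The kept coding ORFs of the 9 genes were longer than most, with a median of 1509 nt against 546 nt over all 7031 kept coding ORFs, and ran from 1077 nt in TYMS to 2835 nt in GART. The ORF caller typed 7 of them as truncated forms and 2, PAICS and TYMS, as variants of annotated coding sequences. None began at ATG, against 20.3% of all kept coding ORFs, so the values below are those of the called stretch and not of the whole annotated frame. ATIC, GART and TYMS also had CDS-type ORFs in the deposited data, which were left out for sharing codons with a kept ORF of higher total. The caller's p-value in the authors' deposited table was at most 1.24e-06 for 8 of the 9 ORFs and 0.986 for RRM1. RRM2 carries an identifier that joins 2 genes in the deposited table. TYMS was named through its other coding ORFs, since its kept ORF starts 45 bases before the RefSeq gene. PPAT and PAICS are neighbours on opposite strands of chromosome 4, and the PAICS ORF on the plus strand begins 692 bases from the RefSeq start of PPAT on the minus strand.

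Footprints summed over kept coding ORFs came to 119947 to 346200 in the 6 monosome libraries and 1493881 to 5313462 in the 6 polysome libraries. The enzymes thus rested on few footprints in monosomes: PPAT had 6 to 46 per monosome library and PAICS 71 to 160, against 82 to 608 and 925 to 4426 per polysome library. Of 8 genes known to be high in HEK293 cells, 6 had a coding ORF and 5 of them were tested, with NEFM at 272 to 6282 footprints per library and LIN28B at 0 to 252. KRT8, a further one, had 0 to 5 footprints per library and was not tested, and INA and KRT18 had no coding ORF. Of 5 genes of other cell types, PTPRC, CD3E, HBB and ALB had no coding ORF and COL1A1 had 0 to 20 footprints per library. Levels below are in CPM, coding footprints scaled to 1000000 per library with TMM factors, a scaling that sets each library to its own composition, so a change is one against the rest of the genes in that fraction. Footprints follow the amount of an mRNA and its ribosome load together, and no mRNA libraries were analysed here. In such bulk lysates, fewer cells with an mRNA and less of it per cell cannot be told apart.

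The 9 enzymes together held 0.194 ± 0.0208% of coding footprints in amino acid starved monosomes and 0.460 ± 0.207% in amino acid starved polysomes (SD, n = 2 each). They held 0.226 ± 0.0970% in serum starved monosomes and 0.276 ± 0.234% in serum starved polysomes. In log phase the shares were 0.193 ± 0.0401% in monosomes and 0.204 ± 0.155% in polysomes. Within a polysome group the B library always held the larger share: 0.606% against 0.314% in A in amino acid starvation, 0.441% against 0.110% in serum starvation and 0.314% against 0.0947% in log phase. The share of amino acid starved A thus lay level with that of log phase B, and serum starved and log phase polysomes overlapped. With CDS-type ORFs alone, which leave ATIC, GART and TYMS, the polysome shares were 0.259% in amino acid starvation, 0.150% in serum starvation and 0.122% in log phase.

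**Figure D1:**
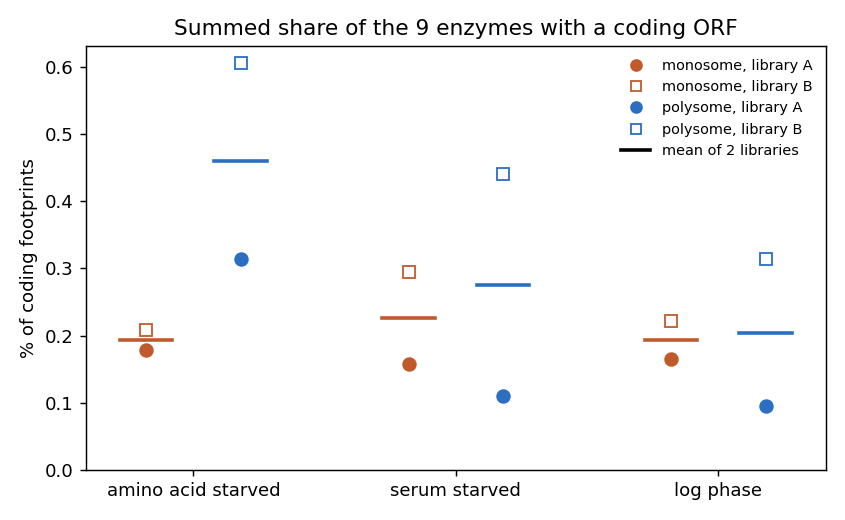
Summed share of coding footprints (%, y axis) held by the 9 enzymes in each library, by condition, with monosomes left of polysomes in each. Points are libraries (filled A, open B) and bars are means of 2: the 2 amino acid starved polysome libraries stand at 0.314% and 0.606%, against 0.0947% and 0.314% in log phase polysomes.

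The levels per length show which enzymes took most ribosomes. In amino acid starved polysomes, as CPM per kilobase of ORF, PAICS stood highest at 854 ± 427, then TYMS at 541 ± 82.2 and IMPDH2 at 370 ± 59.6 (mean ± SD, n = 2). ATIC followed at 265 ± 124, RRM2 at 233 ± 156, CTPS1 at 192 ± 87.8, GART at 147 ± 88.0, PPAT at 118 ± 58.3 and RRM1 at 91.9 ± 67.5. The libraries of TYMS lay above those of IMPDH2, while those of every other pair of neighbours in this order overlapped. In log phase polysomes TYMS averaged 395 ± 132 and PAICS 384 ± 227 on the same scale, and RRM1 was again lowest at 37.0 ± 15.2. In log phase monosomes PAICS averaged 298 ± 19.7 and CTPS1 286 ± 165, while TYMS averaged 89.1 ± 7.36 and PPAT 44.2 ± 10.5.

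**Figure D2:**
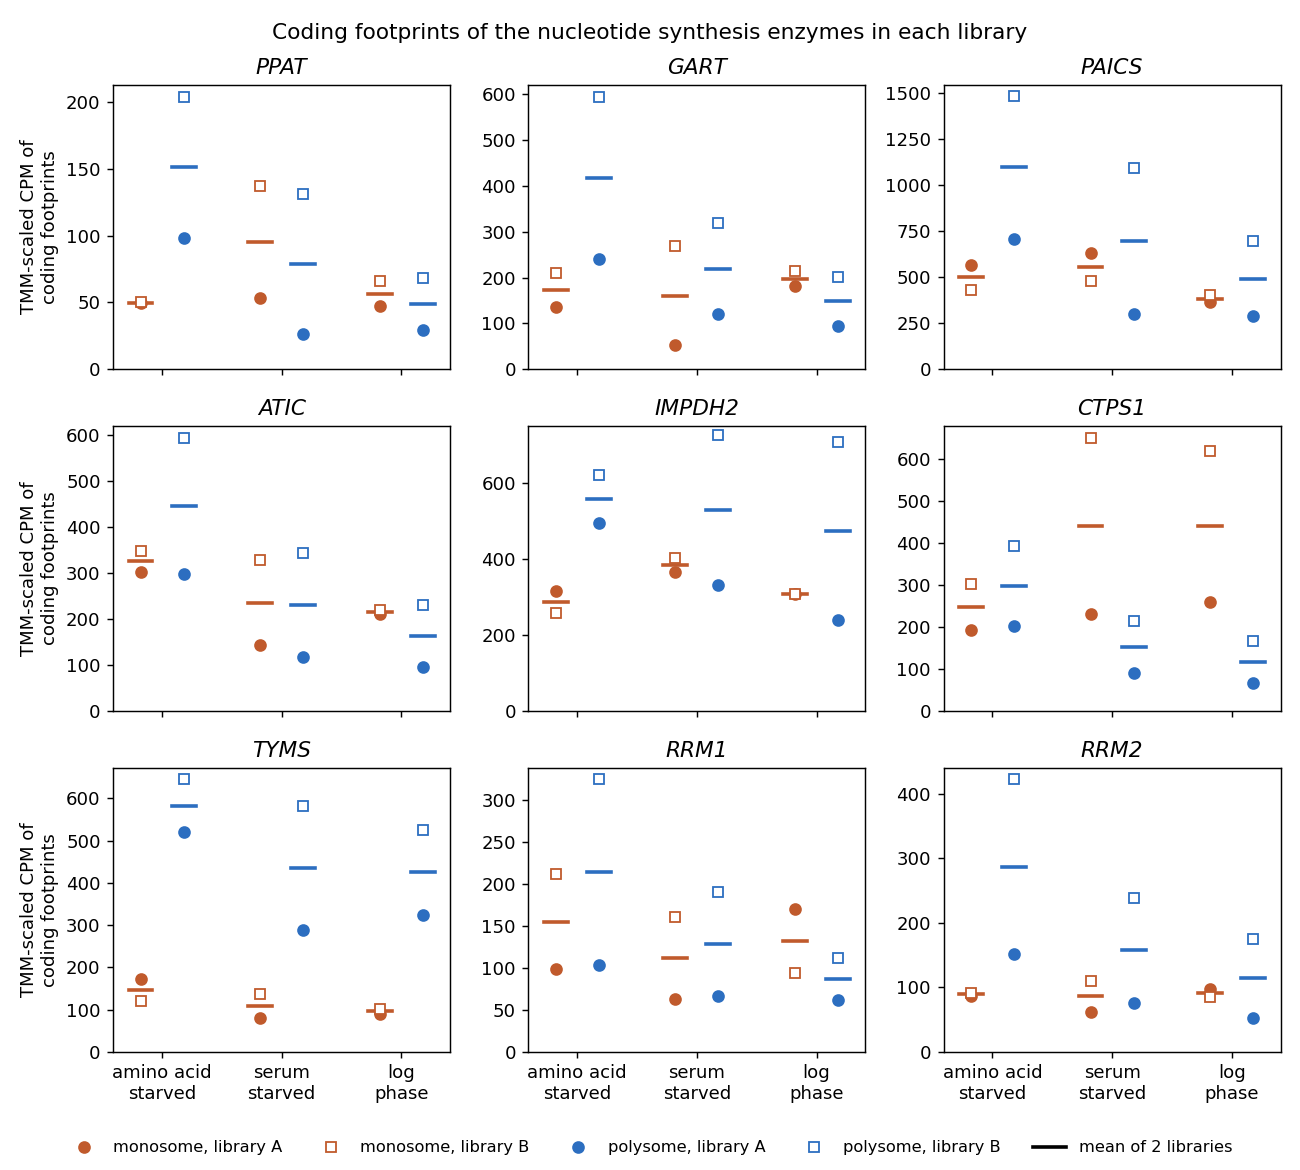
TMM-scaled CPM of coding footprints (y axes from 0) of the 9 enzymes in each of the 12 libraries, with monosomes left of polysomes in each condition. Points are libraries (filled A, open B) and bars are means of 2: TYMS lies at 80.1 to 173 in all monosome libraries and at 289 to 645 in all polysome libraries, and library B is the higher in every polysome group.

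The first question was how the enzymes are divided between monosomes and polysomes. Thymidylate synthase and CTP synthase stood at opposite ends: TYMS footprints were lower in monosomes and CTPS1 footprints higher, while in the fit without a replicate term the purine enzymes and both reductase subunits did not pass the test. With the letter A or B as a replicate block, RRM2 and IMPDH2 also passed, both lower in monosomes. In the fit without that term, over the mean of the 3 conditions, 1 of the 9 enzymes was called higher in monosomes and 1 lower, at an adjusted p under 0.05 from edgeR's quasi-likelihood test with Benjamini-Hochberg adjustment. Over all 4765 genes 17.0% were called higher and 21.8% lower, so the counts of the 9 enzymes lie near the shares of all genes. The median log2 monosome over polysome ratio was -0.41 for the 9 enzymes and -0.18 for all genes.

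TYMS had 173 and 119 CPM in amino acid starved monosomes (A and B throughout), against 519.8 and 645 in amino acid starved polysomes. It had 80.1 and 137 in serum starved monosomes, against 289 and 582 in serum starved polysomes. In log phase it had 90.3 and 102 in monosomes, against 325 and 526 in polysomes. Monosome libraries lay below polysome libraries without overlap for 33.2% of all genes in amino acid starvation, 28.0% in serum starvation and 31.7% in log phase. Monosome and polysome libraries of TYMS did not overlap in any condition. The log2 ratio of monosome over polysome was -2.04 ± 0.32 (SE) over the mean of the conditions, with an adjusted p of 0.000253. It was -2.0 ± 0.55 in amino acid starvation (adjusted p 0.0400), -1.96 ± 0.55 in serum starvation (0.0460) and -2.15 ± 0.55 in log phase (0.0224), all from edgeR. The call over the mean held without each of the 12 libraries in turn.

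CTPS1 had 192 and 303 CPM in amino acid starved monosomes, against 201 and 392 in amino acid starved polysomes. It had 231 and 650 in serum starved monosomes, against 89.9 and 213 in serum starved polysomes. In log phase it had 260.2 and 620.3 in monosomes, against 66.6 and 166 in polysomes. Monosome libraries lay above polysome libraries without overlap for 20.2% of all genes in serum starvation and 26.5% in log phase. The monosome libraries of CTPS1 lay above its polysome libraries in serum starvation and log phase and overlapped with them in amino acid starvation. Over the mean of the conditions the log2 ratio was 1.08 ± 0.40 (adjusted p 0.0428, edgeR), and no single condition passed: -0.26 ± 0.69 in amino acid starvation (adjusted p 0.830), 1.56 ± 0.69 in serum starvation (0.163) and 1.93 ± 0.70 in log phase (0.0835). The call was lost without any 1 of 8 libraries, namely either library of amino acid starved or log phase monosomes, serum starved monosome B, or the A library of any polysome group, with log2 ratios of 0.66 to 1.15 and adjusted p of 0.0533 to 0.254. Library-size scaling or no filter on low counts also ended it, at adjusted p of 0.105 and 0.0756.

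The letters moved with the levels of these genes. All 9 enzymes were higher in library B than in library A in each of the 3 polysome groups, with median log2 B over A ratios of 1.05 in amino acid starvation, 1.51 in serum starvation and 1.28 in log phase, against -0.08, -0.16 and -0.16 over all genes. In monosomes 6, 8 and 7 of the 9 were higher in B in the same order of conditions. Their median log2 ratios were 0.08, 1.20 and 0.13, against 0.01, 0.12 and 0.02 over all genes. Each comparison is therefore also given with the letter as a replicate block, a model term that takes out a difference between A and B shared by all groups. The term takes the same shift in both fractions, so its basis is weaker where monosomes are compared with polysomes. What the letters stand for was not tested.

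With the replicate block, 1 of the 9 enzymes was called higher and 3 lower in monosomes over the mean of the conditions. Over all genes 23.9% were called higher and 30.3% lower, so these counts too lie near the shares of all genes. CTPS1 had a log2 ratio of 1.07 ± 0.22 (adjusted p 0.000152) and TYMS of -2.01 ± 0.25 (8.76e-08), and both calls held without each library in turn. RRM2, the subunit that holds the tyrosyl radical and is made in S phase, had a log2 ratio of -0.80 ± 0.27 (adjusted p 0.0141). IMPDH2 had -0.61 ± 0.25 (0.0428). These last calls were less steady: RRM2 was lost without the B library of any polysome group or of log phase monosomes, with an adjusted p of up to 0.132. IMPDH2 was lost without any 1 of 7 libraries, namely amino acid starved polysome A and the B library of every group, with an adjusted p of up to 0.426, and under RLE or library-size scaling.

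Within single conditions the blocked fit called CTPS1 higher and TYMS lower in log phase monosomes, at log2 ratios of 1.94 ± 0.38 (adjusted p 0.000243) and -2.12 ± 0.42 (0.000312), where 16.5% of all genes were called higher and 17.9% lower. In serum starvation the same genes were called, CTPS1 at 1.52 ± 0.38 (0.00395) and TYMS at -1.94 ± 0.44 (0.00149), where 14.4% of all genes were called higher and 14.0% lower. Without serum starved monosome B, CTPS1 was not called in serum starvation, at an adjusted p of 0.187. Without a block, TYMS was the 1 enzyme called in each condition, lower in all. In amino acid starvation 1.55% of all genes were called lower and 5.56% higher in that fit, in serum starvation 2.54% and 4.3%, and in log phase 5.1% and 6.25%. Leaving out 1 library at a time, that TYMS call held in 6 of 12 fits in amino acid starvation, 3 of 12 in serum starvation and 9 of 12 in log phase.

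In amino acid starvation none of the 9 enzymes had a positive log2 monosome over polysome ratio, against 46.2% of all genes. PPAT had 49.4 and 50.5 CPM in monosomes, against 98.6 and 204 in polysomes. GART had 136 and 211 in monosomes, against 241 and 594 in polysomes. RRM2 had 86.5 and 91.7 in monosomes, against 151 and 422 in polysomes. For 6 of the 9, namely PPAT, GART, PAICS, IMPDH2, TYMS and RRM2, both monosome libraries lay below both polysome libraries, against 33.2% of all genes. The blocked fit called 4 lower and none higher, against 13.6% of all genes lower and 15.5% higher: TYMS at -1.98 ± 0.43 (adjusted p 0.000961), RRM2 at -1.56 ± 0.48 (0.0161), PPAT at -1.60 ± 0.50 (0.0173) and GART at -1.18 ± 0.43 (0.0364). Long ORFs moved the same way: the 1011 tested genes with ORFs in the length range of the enzymes had a median log2 ratio of -0.49 in this fit, against -0.12 over all genes and -1.0 over the 9 enzymes. Of these 1011 genes, 203 were called lower and 54 higher. Without amino acid starved monosome B none of the 9 was called, and without either amino acid starved polysome library 1 was.

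**Figure D3:**
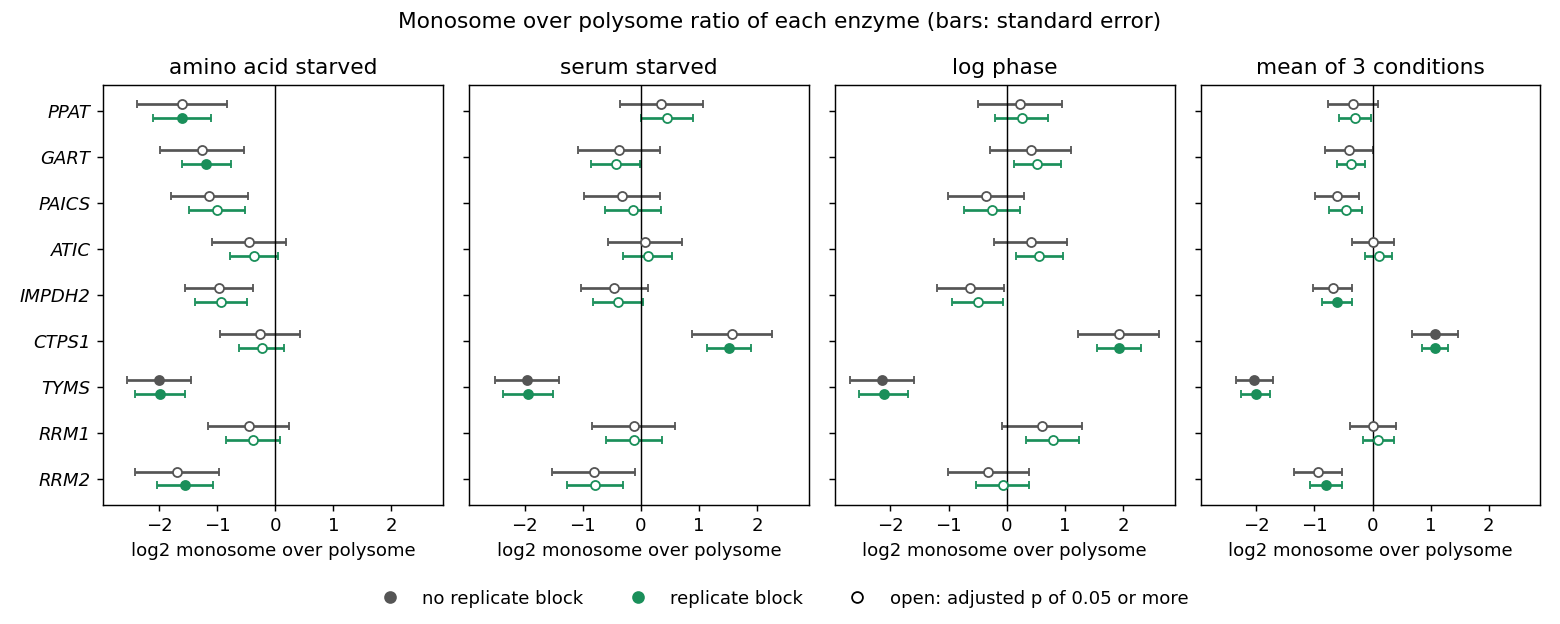
Log2 ratio of monosome over polysome footprints (x axis) of each enzyme in each condition and over their mean, from edgeR without (grey) and with (green) a replicate block. Points are estimates with standard errors, filled where the adjusted p was under 0.05: TYMS lies near -2 in all 4 panels, and CTPS1 lies at 1.08 over the mean but at -0.26 in amino acid starvation.

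The second question was whether starvation for amino acids changed the enzymes' footprints within a fraction. In polysomes every enzyme had a higher fitted level in amino acid starvation than in log phase, all but IMPDH2 and TYMS by more than 2-fold in the fit, but none passed without a replicate block. The median log2 ratio of amino acid starved over log phase polysomes was 1.34 for the 9 enzymes and -0.10 for all genes, and 9 of 9 were above 0 against 45.4% of all genes. In that fit 0.0% of the 4765 genes were called in either direction by edgeR at an adjusted p under 0.05, and 411 had an unadjusted p under 0.05, PPAT and ATIC among the enzymes. DESeq2 called 90 genes over the table, 80 of them lower, and none of the 9. It gave no adjusted p for PPAT, GART, RRM1 and RRM2, so these could not be called there.

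PPAT had 98.6 and 204 CPM in amino acid starved polysomes, against 29.1 and 68.5 in log phase polysomes. GART had 241 and 594, against 95.1 and 202. ATIC had 299 and 595, against 94.4 and 229. For these genes both amino acid starved libraries lay above both log phase libraries, and the same held for PAICS and CTPS1, so that 5 of the 9 did not overlap, against 14.9% of all genes.

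PAICS had 709 and 1485 CPM in amino acid starved polysomes, against 287 and 699 in log phase polysomes. CTPS1 had 201 and 392, against 66.6 and 166. RRM2 had 151 and 422, against 52.2 and 175, and here amino acid starved A lay below log phase B. RRM1 overlapped too, with 103 and 325 CPM in amino acid starved polysomes, against 61.1 and 111 in log phase polysomes. IMPDH2 had 494 and 621, against 240.0 and 708, and TYMS had 519.8 and 645, against 325 and 526. These last genes showed the smallest differences, and for IMPDH2 the comparison of B with B ran the other way, at a log2 ratio of -0.19 against 1.04 for A with A. For the other 8 enzymes both comparisons within a letter were above 0, at log2 ratios of 0.68 to 1.76 for A and 0.29 to 1.57 for B.

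With the replicate block 5 of the 9 enzymes were called higher in amino acid starved polysomes and none lower, against 5.14% of all genes higher and 4.93% lower. PPAT had a log2 ratio of 1.67 ± 0.39 (adjusted p 0.00793), ATIC of 1.51 ± 0.39 (0.0153), GART of 1.45 ± 0.39 (0.0172), CTPS1 of 1.42 ± 0.37 (0.0149) and RRM2 of 1.38 ± 0.41 (0.0297), all from edgeR. RRM1 had 1.19 ± 0.42 (0.0649), PAICS 1.18 ± 0.47 (0.0996), TYMS 0.48 ± 0.38 (0.443) and IMPDH2 0.34 ± 0.42 (0.664). Among the 1011 genes with ORFs of similar length 15.1% were called higher and the median log2 ratio was 0.42, against -0.08 over all genes and 1.38 over the 9 enzymes. The 5 calls rest on the 4 libraries compared: none was made without amino acid starved polysome A, amino acid starved polysome B or log phase polysome A, and 3 were made without log phase polysome B. Where a group keeps 1 library, that library is assumed to vary like those of the other groups. Library-size scaling moved the median of all genes to 0.24 and then called 6 of the 9, RRM1 in addition, and put 78.2% of all calls on the higher side, against 51.0% under TMM scaling.

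**Figure D4:**
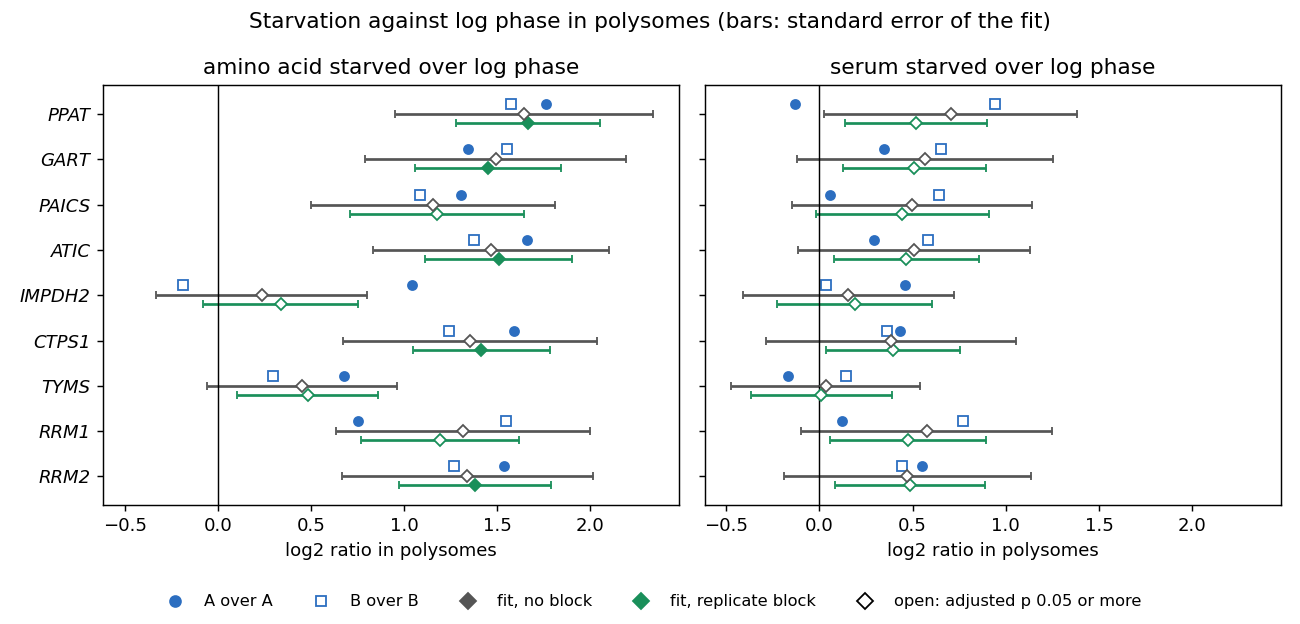
Log2 ratios in polysomes (x axes) of amino acid starved over log phase (left) and serum starved over log phase (right) for each enzyme. Circles and squares compare A with A and B with B, diamonds are edgeR estimates with standard errors, filled where the adjusted p was under 0.05: 5 blocked estimates are filled on the left, from 1.38 to 1.67, and none on the right.

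In monosomes amino acid starvation gave no such pattern. Against log phase, 4 of the 9 enzymes had a positive and 5 a negative log2 ratio, from -0.83 for CTPS1 to 0.60 for ATIC, with a median of -0.03 against -0.01 over all genes. No enzyme was called in either fit; without a block 0.0% of all genes were called by edgeR and 240 had an unadjusted p under 0.05, and with it 0.63% were called higher and 0.399% lower. ATIC had 303 and 349 CPM in amino acid starved monosomes, against 209.6 and 219.6 in log phase monosomes, and its libraries did not overlap. The same was true of PAICS, with 568 and 431 against 365 and 401, and of TYMS, with 173 and 119 against 90.3 and 102, so that 3 of the 9 lay higher without overlap against 22.1% of all genes.

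Whether the monosome over polysome ratio itself changed in amino acid starvation was tested as the difference of the ratios in amino acid starvation and in log phase. The difference was negative for 8 of the 9 enzymes, with a median log2 value of -1.06 against 0.03 over all genes in the fit without a block. Long ORFs moved the same way here too: the 1011 genes with ORFs in the enzymes' length range had a median of -0.51. No enzyme passed without a block, where 0.0% of all genes were called and 201 had an unadjusted p under 0.05. With the block CTPS1 passed, at -2.17 ± 0.54 (adjusted p 0.0360), against 0.0839% of all genes lower and 1.07% higher. In both letters the CTPS1 ratio was near even in amino acid starvation, at log2 values of -0.07 for A and -0.37 for B, against 1.97 and 1.90 in log phase. The call was lost without any 1 of 8 libraries, with adjusted p of up to 0.504: amino acid starved monosome B, either amino acid starved polysome, log phase monosome A, either log phase polysome and either serum starved monosome. The other enzymes did not pass. TYMS had a difference of 0.14 ± 0.59 in the blocked fit (adjusted p 0.954, edgeR).

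Serum starvation was set against log phase with the same log phase libraries. In polysomes all 9 enzymes had a fitted log2 ratio above 0, from 0.03 for TYMS to 0.70 for PPAT, with a median of 0.50 against 0.00 over all genes. No enzyme was called with or without the block, and 0.0% of all genes were called either way, with 5 genes at an unadjusted p under 0.05 without the block. PPAT had 26.5 and 131 CPM in serum starved polysomes, against 29.1 and 68.5 in log phase polysomes, so that B was higher and A lower. Serum starved and log phase polysome libraries overlapped for every enzyme, and only 3.55% of all genes lay higher and 3.5% lower without overlap. Without serum starved polysome B, the log2 ratios of all 9 enzymes fitted without the block were below 0, from -0.89 for PPAT to -0.31 for GART. That fit set serum starved A alone against log phase A and B. Compared A with A, the log2 ratios of the enzymes ran from -0.17 to 0.55, with a median of 0.29. In monosomes the log2 ratios ran from -0.22 for GART to 0.83 for PPAT and none was called, where 0.0% of all genes were called without the block and 0.021% higher with it.

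Amino acid starvation was also set against serum starvation. In polysomes the 9 log2 ratios ran from 0.08 for IMPDH2 to 0.97 for CTPS1, and in monosomes from -1.01 for PPAT to 0.44 for ATIC. No enzyme was called in either fraction or fit. In polysomes 0.0% of all genes were called without the block by edgeR, with 188 at an unadjusted p under 0.05, and with it 0.042% were called higher and 0.965% lower. In monosomes 0.0% were called without the block, with 165 at an unadjusted p under 0.05, and with it 0.21% were called higher and 0.021% lower.

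The 9 enzymes varied together over the 12 libraries to different degrees. The log2 level of RRM2 followed the mean of the other enzymes most closely (Pearson r 0.951), then PPAT (0.911), GART (0.879), ATIC (0.870) and PAICS (0.827). RRM1 had 0.777 and IMPDH2 0.746, while TYMS had 0.403 and CTPS1 0.386. Over the 36 pairs of enzymes r ran from -0.36 to 0.88 with a median of 0.67. The genes outside the set most like its mean were TUBB4B (r 0.987), PSMD12 (0.981), PKM (0.980), PEG10 (0.976) and RUVBL1 (0.972). These correlations are descriptions over libraries that share fraction, condition and letter.

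Other genes of nucleotide metabolism were read from 7 lists of 55 genes, of which 36 had a coding ORF and 35 were tested. Over the mean of the conditions 4 of the 35 were called higher in monosomes and 14 lower in the fit without a block, where 17.0% of all genes were called higher and 21.8% lower. Their median log2 ratio was -0.42, against -0.18 over all genes. The counts of the single lists below are of few genes and stand against the same shares. PRPS1, which makes the activated ribose PRPP, had a log2 monosome over polysome ratio of -2.26 ± 0.31 (adjusted p 0.000104), and PRPS2 and the associated PRPSAP1 also passed, so that 3 of 4 genes of PRPP synthesis were lower, against 21.8% of all genes. PRPS1 had 92.7 and 91.7 CPM in amino acid starved monosomes, against 337 and 450.5 in amino acid starved polysomes.

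Among the genes of one-carbon metabolism and thymidylate synthesis 3 of 7 tested were lower in monosomes and none higher, against 21.8% and 17.0% of all genes. DUT, which makes dUMP for TYMS, had a log2 ratio of -1.58 (adjusted p 0.00136, edgeR), and the mitochondrial folate enzyme MTHFD2 of -0.79 (0.0255). TXN and TXNRD1, which pass electrons to ribonucleotide reductase and other proteins, were both lower, at -1.46 and -1.35. Of 3 further purine genes tested, ADSS2 was lower at -1.08 (adjusted p 0.0284). Of 2 further pyrimidine genes none was called.

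Nucleotide kinases and salvage enzymes divided. Of 6 kinases tested, GUK1, the GMP kinase, was higher in monosomes at a log2 ratio of 3.21 (adjusted p 2.45e-05), AK6 was higher at 1.01 and AK4, a mitochondrial adenylate kinase, lower at -1.01. GUK1 had 49.4 and 87.2 CPM in amino acid starved monosomes, against 6.01 and 9.39 in polysomes. These values rest on few footprints: in amino acid starved monosome A, PPAT at the same 49.4 CPM had 8. Of 11 salvage genes tested, 4 were lower and 2 higher, against 21.8% and 17.0% of all genes. HPRT1, which returns hypoxanthine and guanine to nucleotides, was lower at -1.65 (adjusted p 0.000502). UCK1, a uridine and cytidine kinase, was higher at 1.59 (0.00291) while its paralog UCK2 was lower at -1.45 (0.00123).

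In amino acid starved polysomes against log phase polysomes none of these 35 genes was called without the block. With it 2 of the 35 were called higher and none lower, against 5.14% and 4.93% of all genes, a share near that of all genes. They were SHMT2, the mitochondrial serine hydroxymethyltransferase, at a log2 ratio of 1.57 (adjusted p 0.0127) and SHMT1, its cytosolic counterpart, at 1.49 (0.0244). SHMT2 had 121 and 297 CPM in amino acid starved polysomes, against 41.0 and 99.1 in log phase polysomes. All 6 tested nucleotide kinases had a log2 ratio below 0. Of the 35 genes 17 were above 0 with the block, against 45.5% of all genes and 9 of the 9 enzymes, and the difference between these lists was not tested.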

How the data were processed

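Per the file headers and labels, the authors deposited 1 table of 149028 ORFs with expected counts of footprints per ORF and library, a total and the caller's p-value. The submitters' processing notes name Bowtie 1.0 and hg38. What each was used for is not given in the sources used here. The expected counts, which divide footprints among ORFs, were used as deposited by the authors, with coding types (CDS, Trunc, Variant) first and higher totals next, and an ORF sharing a codon with a kept one was left out. This kept 124829 ORFs, 7031 of them coding, in 6375 genes, whose expected counts were summed and rounded. Gene identifiers were named by position inside 1 protein-coding RefSeq gene (5894 genes, and 57 through other coding ORFs), and 424 kept their identifiers. The p-value column was deposited by the authors and is only quoted.

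Genes were kept by filterByExpr (minimum count 10, minimum total 15), scaled by TMM and fitted in edgeR 4.0.16 (R 4.3.3) over 6 groups of 2 libraries, two-sided, with Benjamini-Hochberg adjustment over 4765 genes in each of 12 contrasts. Standard errors come from the F statistics. Depth was 354509 to 1204002 footprints on kept ORFs in monosome and 2477832 to 7683764 in polysome libraries; the common biological coefficient of variation was 0.433. PCR reads without molecular identifiers are not independent molecules, so depth bounds counting error only.

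The labels do not say what the letters A and B stand for. Differences of B from A, taken gene by gene in each group, were correlated between groups for all 15 pairs. For the 3 pairs of polysome groups r was 0.770 to 0.866, and for pairs with a monosome group 0.161 to 0.422. The letters were taken to pair libraries, and the fit with a replicate block is given beside the other. The block takes the same shift in both fractions, so its basis is weaker where monosomes are compared. The alternatives tried were other scalings (RLE, library size), DESeq2 1.42.0, a filter of 50 counts in 2 libraries or no filter, CDS-type ORFs alone, the compared groups alone, and leaving out each library; the blocked fits with a library left out or another scaling were added after the data were seen. The edgeR fit was also run on simulated counts, for amino acid starved over log phase polysomes alone. There the B libraries of all groups got the same shift per gene, so a shift that differs between fractions was not tested. The enzymes, pathway lists and rules for naming were chosen with earlier results of these data known. All genes of the lists that passed were eligible for naming, up to 4 per list and comparison by smallest p, and up to 5 genes most like the enzymes' mean. The values of 1 gene of the lists are not reported here.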

Additional observations from a re-analysis of the deposited data

Results flagged for a closer look

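CTPS1 drew attention because its monosome over polysome ratio differed between amino acid starvation and log phase in a direct test of the difference. The log2 difference was -2.17 with the replicate block (adjusted p 0.0360, edgeR) and -2.18 without it (adjusted p 0.998), and both letters showed the same direction.

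CAD had footprints outside the comparisons. Its 24 kept ORFs were of types other than coding, 21 internal ORFs, 2 non-coding RNA ORFs and 1 upstream ORF, and held 434.7 footprints over the 12 libraries. Scaled to 1000000 coding footprints per library, these came to 46.3 and 142 in amino acid starved monosomes, against 7.03 and 48.9 in amino acid starved polysomes. In serum starvation they came to 13.3 and 34.3 in monosomes, against 10.2 and 24.1 in polysomes. In log phase they came to 29.4 and 44.5 in monosomes, against 6.12 and 33.5 in polysomes. The amino acid starved monosome values rest on few footprints, nearly all on an internal ORF of 36 nt: 7.9 of 8.0 in A and 27.1 of 30.0 in B. In amino acid starved polysomes that ORF held 1.3 of 10.5 CAD footprints in A and 6.8 of 127.1 in B. The deposited types other than coding held 16.6 to 40.7% of the footprints of each of the other 9 enzymes. No test was run on them.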

How the results depend on the processing

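Without the block, 2 enzymes were called over the mean of the conditions and 1 in each condition. Library-size scaling gave 1 over the mean and 0 in each condition. CDS-type ORFs alone, which leave ATIC, GART and TYMS, gave 1 over the mean and 0 in serum starvation. RLE scaling gave 0 in serum starvation, and the filter of 50 counts gave 0 in both starvations. The compared groups alone gave 0 in serum starvation and 2 in log phase, where DESeq2 also gave 2. The replicate block gave 4 over the mean, 2 in log phase, 2 in serum starvation, 4 in amino acid starvation, 5 for amino acid starved over log phase polysomes and 1 for the ratio difference, and it changed no call elsewhere. Leaving out each library gave 1 to 3 over the mean, 0 to 1 under amino acid starvation, 0 to 1 under serum starvation and 0 to 2 in log phase. With the block these ranges were 2 to 5, 0 to 6, 1 to 2 and 2 to 3, then 0 to 7 for the polysome comparison and 0 to 3 for the ratio difference.

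Some uncalled directions turned. Over the mean of the conditions ATIC had -0.0548 by library-size scaling and -0.17 without a filter, and RRM1 -0.044 and -0.17. Leaving out a library gave -0.75 to 0.28 for PPAT, -0.35 to 0.43 for ATIC and -0.40 to 0.46 for RRM1 there, and -0.35 to 1.34 for IMPDH2 in amino acid starved over log phase polysomes. For serum starved over log phase polysomes it gave -0.89 to 1.53 for PPAT, -0.31 to 1.29 for GART, -0.74 to 1.37 for PAICS, -0.50 to 1.37 for ATIC, -0.55 to 1.22 for IMPDH2, -0.39 to 1.27 for CTPS1, -0.58 to 0.50 for TYMS, -0.39 to 1.18 for RRM1 and -0.59 to 1.68 for RRM2. A fit that keeps 1 library of a polysome group sets its letter against both letters of the group compared. All 9 enzymes were higher in B than in A in each polysome group. The causes were not tested.

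The summed share with CDS-type ORFs alone was 0.0845% in amino acid starved, 0.0749% in serum starved and 0.0841% in log phase monosomes, and in polysomes 0.259%, 0.150% and 0.122% in the same order. With overlapping codons counted more than once it was 0.161% in amino acid starved and 0.147% in log phase monosomes. Scaling moved the median of all genes: for amino acid starved over log phase polysomes it was 0.22 by library size and -0.10 by TMM, with none of the directions of the 9 enzymes turned. Of genes called without the block, 78.2% were higher in amino acid starved monosomes under TMM and 66.5% by library size. Under TMM and RLE scaling 62.9% and 76.7% were higher in serum starved monosomes, and 55.1% and 69.4% in those of log phase. Depth limits the monosome values most, at 6 to 226 footprints per enzyme and library.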
